A study of Mus musculus with 8 samples.

Results

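The genes described here are 38 genes of cell division, of which 14 act in S phase, when DNA is copied, and 24 in G2 and mitosis (G2/M). They were taken as rows of the deposited table by name, and all 38 were found among its 16889 genes. The list was chosen with earlier results of these data known. The table holds unique molecular identifiers (UMIs), which count captured RNA molecules, per gene and cell of the mouse colon. CD11b+ cells of the lamina propria that carried CCR2 or CD64 were sorted from 8 female CD98hcΔCX3CR1 mice, and each mouse filled a well of its own in a 3′ capture aimed at 3000 cells. The control group (replicates 1 to 4) was injected with corn oil and the cKO group (replicates 5 to 8) with tamoxifen (100 µl at 20 mg/ml), daily for 5 days, and the readout was on day 7. All 8 mice carried the floxed CD98hc gene (Slc3a2) and a tamoxifen-dependent Cre recombinase with EYFP under the Cx3cr1 promoter. Deletion is therefore limited to cells that have expressed Cx3cr1, and because only cKO mice received tamoxifen, the drug and the deletion cannot be told apart. Control and cKO name the groups as labelled. Slc3a2 itself was at 233 to 493 CPM (UMIs scaled to 1000000 per mouse) in control and 291 to 357 CPM in cKO mice, with overlap and an edgeR adjusted p of 0.976 at a log2 difference of 0.02 ± 0.21 (standard error), and a 3′ count does not show the excised part. Sums over all cells of a mouse cannot tell fewer cells of a type from less RNA per cell.

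A dividing cell copies its DNA in S phase and separates the copies in mitosis, and both steps need proteins whose transcripts rise shortly before and fall afterwards. S phase transcripts encode the helicase that opens DNA (Mcm2 to Mcm7), the sliding clamp of the polymerase (Pcna) and the enzymes that supply nucleotides (Tyms, Rrm1, Rrm2, Tk1), and many are driven by E2F factors. G2/M transcripts encode cyclins and their kinase (Ccna2, Ccnb1, Ccnb2, Cdk1), mitotic kinases (Aurka, Aurkb, Plk1), kinetochore and checkpoint proteins and the motors of the spindle, and many carry a CHR element beside CCAAT boxes in their promoters. Monocytes that enter the gut wall are mostly past division, whereas dendritic cell precursors and lymphocytes can divide in tissue.

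These promoter elements are visible in the sequences of some of the genes named in the results. Promoter windows from RefSeq (GRCm38.p6), from 250 bases before to 50 bases after the start site, were found for 32 of the 38 genes. The CHR letters TTTGAA, read on both strands, stood in 14 of 20 G2/M windows (70.0%) and in 1 of 12 S windows (8.33%), where 18.1% of 27025 genes had them. CCAAT, again on both strands, was present in 85.0% of the G2/M windows and 75.0% of the S windows, against 37.9% of all genes, and CHR and CCAAT occurred together in 65.0%, 8.33% and 7.12%, respectively. An E2F sequence (TTTCCCGC, TTTGGCGC, TTTGCCGC or TTTCGCGC, both strands) was found in 5 of 12 S windows (41.7%), in 1 of 20 G2/M windows (5.00%) and in 2.32% of all genes. Such matches are descriptions of letters and not of binding. Of the genes called lower in cKO mice further below, Cdk1 and Mcm5 held a CHR or E2F match within 200 bases before the start. Bub1b, Cenpf and Cenpe held only CCAAT there, Birc5 held no match, and Aurkb had no window. Bub1b and Cenpf had a CHR match elsewhere in their windows. The windows below are those of the named genes that held a CHR or an E2F match within 200 bases before the start site. Each ends at that site and is written on the strand of the gene, with every CHR, CCAAT and E2F match in capitals. They lie at chr10:69352913-69353112 (Cdk1, minus strand), chr7:135716380-135716579 (Mki67, minus strand), chr11:99024190-99024389 (Top2a, minus strand), chr8:75109309-75109508 (Mcm5, plus strand) and chr1:128359706-128359905 (Mcm6, minus strand).
Cdk1: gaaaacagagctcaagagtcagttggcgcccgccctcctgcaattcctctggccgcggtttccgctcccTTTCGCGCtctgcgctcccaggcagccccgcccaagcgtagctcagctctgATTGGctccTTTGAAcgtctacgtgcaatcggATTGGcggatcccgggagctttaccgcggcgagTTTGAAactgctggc
Mki67: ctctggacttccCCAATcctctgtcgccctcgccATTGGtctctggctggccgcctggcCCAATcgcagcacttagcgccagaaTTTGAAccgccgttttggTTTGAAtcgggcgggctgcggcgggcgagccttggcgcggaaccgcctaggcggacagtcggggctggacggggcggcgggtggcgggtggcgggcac
Top2a: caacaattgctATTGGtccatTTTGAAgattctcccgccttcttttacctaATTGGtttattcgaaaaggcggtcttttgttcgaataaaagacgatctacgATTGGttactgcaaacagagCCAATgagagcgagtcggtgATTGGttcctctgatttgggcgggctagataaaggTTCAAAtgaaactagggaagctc
Mcm5: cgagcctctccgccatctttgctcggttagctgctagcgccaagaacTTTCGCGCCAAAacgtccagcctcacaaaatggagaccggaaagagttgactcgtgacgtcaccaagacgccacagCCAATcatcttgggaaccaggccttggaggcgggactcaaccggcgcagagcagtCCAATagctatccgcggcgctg
Mcm6: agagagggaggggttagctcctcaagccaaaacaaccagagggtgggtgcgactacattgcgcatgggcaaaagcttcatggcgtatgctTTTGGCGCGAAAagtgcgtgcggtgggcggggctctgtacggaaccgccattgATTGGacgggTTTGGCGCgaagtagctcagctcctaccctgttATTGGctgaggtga

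Cdk1, the kinase that drives entry into mitosis, held both kinds of element, with CHR matches 71 and 15 bases before the start and an E2F match 131 bases before it. In Mki67, which encodes the proliferation marker Ki-67, CHR matches began 116 and 98 bases before the start, and in Top2a, the topoisomerase that untangles sister chromosomes, 179 and 23 bases before it. Mcm5 and Mcm6, subunits of the replicative helicase, held no CHR match in the windows shown. Their E2F matches began 153 and 149 bases before the start in Mcm5, which overlap each other, and 110, 106 and 47 bases before it in Mcm6, of which the first overlaps the second.

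After filtering, 3213 cells remained (1863 control and 1350 cKO), with 85 to 724 cells and 589135 to 3762314 UMIs per control mouse and 83 to 484 cells and 497531 to 2486236 UMIs per cKO mouse. Control replicate 3 (85 cells) and cKO replicate 5 (83 cells) stood apart by their low number of cells, and results are given with and without them where they rest on them. Scrublet marked 73 cells as possible doublets, 58 of them in cKO mice and 24 in cKO replicate 5. These cells were kept, and 4 of them were among the 229 cells richest in list UMIs described next. Of the cell barcodes kept, 8 occurred in more than 1 well.

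Most cells held a trace of these transcripts and few held many. At least 1 UMI over the 38 genes was found in 70.9% of cells, at least 3 UMIs in 988 cells (30.8%), which is called the cycling share here, at least 10 UMIs in 229 cells (7.13%) and at least 50 UMIs in 98 cells (3.05%). The 229 cells, whose limit of 10 UMIs was set after the values were seen, held 73.4% of all list UMIs. Both S and G2/M transcripts were present in 219 of them, with a median of 34 list UMIs per cell. The 759 cells with 3 to 9 list UMIs differed in their makeup. In them Pcna, Stmn1 and Cks2 made up 54.3% of list UMIs (Cks2 25.7%, Pcna 22.6%), against 24.9% in the cells from 10 UMIs. Pcna also serves DNA repair, and its UMIs were found in 29.1% of stromal-like cells, in which only 1 cell of 86 reached 10 list UMIs. Of the Pcna UMIs, 40.1% came from cells with at least 10 list UMIs, and of the Cks2 UMIs 39.2%, whereas for Ube2c (the conjugating enzyme of the anaphase-promoting complex), Birc5 and Rrm2 these shares were 94.8%, 93.7% and 92.5%. Both limits are given where they differ.

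Cells were grouped into 9 clusters from which these and all other listed cell cycle genes had been left out, so that no cluster was formed by them, and clusters were named by marker genes. With all mice pooled, most of the cells richest in cell cycle transcripts were dendritic-like, while in cKO mice alone they were not the majority. The sort was labelled as monocytes and macrophages, and macrophage-like (Fcrls, Pf4, Apoe, C1qc) and monocyte-like cells (Chil3, Ly6c2, F13a1) were present, but 533 cells (16.6%) were led by dendritic cell markers. These split into 284 type 1-like cells, whose leading 10 genes included Xcr1, Cd24a and Clec9a, and 249 type 2-like cells, whose leading 10 included Cd209a, Ccl17 and Clec10a. The leading genes of the type 2-like cells also held 2 markers of migratory dendritic cells, Ccr7 and Il4i1. Dendritic-like cells held 65.1% of all list UMIs and 154 of the 229 cells (67.2%) with at least 10. These were 132 of 173 such cells in control mice and 22 of 56 in cKO mice. Per mouse, the dendritic-like share of such cells was 68.4%, 76.9%, 100% and 81.4% in control replicates 1, 2, 3 and 4. It was 66.7%, 53.8%, 14.3% and 42.3% in cKO replicates 5, 6, 7 and 8.

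Among type 1-like cells 194 of 284 (68.3%, 95% Wilson interval 62.7 to 73.4) had at least 3 list UMIs and 117 (41.2%, 35.6 to 47.0) at least 10. Type 2-like cells followed with 52.2% (46.0 to 58.3) and 14.9% (10.98 to 19.8). T and innate lymphoid-like cells (112 cells, led by Gzmb, Cxcr6 and Cd3g) had 28.6% (21.0 to 37.5) and 12.5% (7.59 to 19.9), so that their interval overlapped that of type 2-like cells at 10 UMIs. The intervals cover counting error only. For comparison, 15.1% (9.05 to 24.2) of stromal-like cells had at least 3 list UMIs and 1.16% (0.206 to 6.30) at least 10.

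Depth differed between these cells, and the cycling share was measured again at equal depth. Type 1-like cells had a median of 11041 UMIs, type 2-like cells 7548, monocyte-like cells 5085, stromal-like cells 4823.5 and T and innate lymphoid-like cells 2800.5. When every cell was thinned to 1000 UMIs, 30.1% of type 1-like, 10.2% of type 2-like and 10.9% of T and innate lymphoid-like cells still had at least 3 list UMIs. The shares at that depth were 1.21% in monocyte-like, 2.27% in macrophage-like and 1.20% in stromal-like cells, beside 24.6%, 28.8% and 15.1% before thinning. A macrophage-like cluster of low UMI count (279 cells, median 1167 UMIs, led by Ccl8, Pf4 and Cela1) had 34 of 279 cells (12.2%) before thinning and 22 of 184 cells (11.96%) at 1000 UMIs, a depth close to its median. At equal depth type 1-like cells were still the highest.

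**Figure D1:**
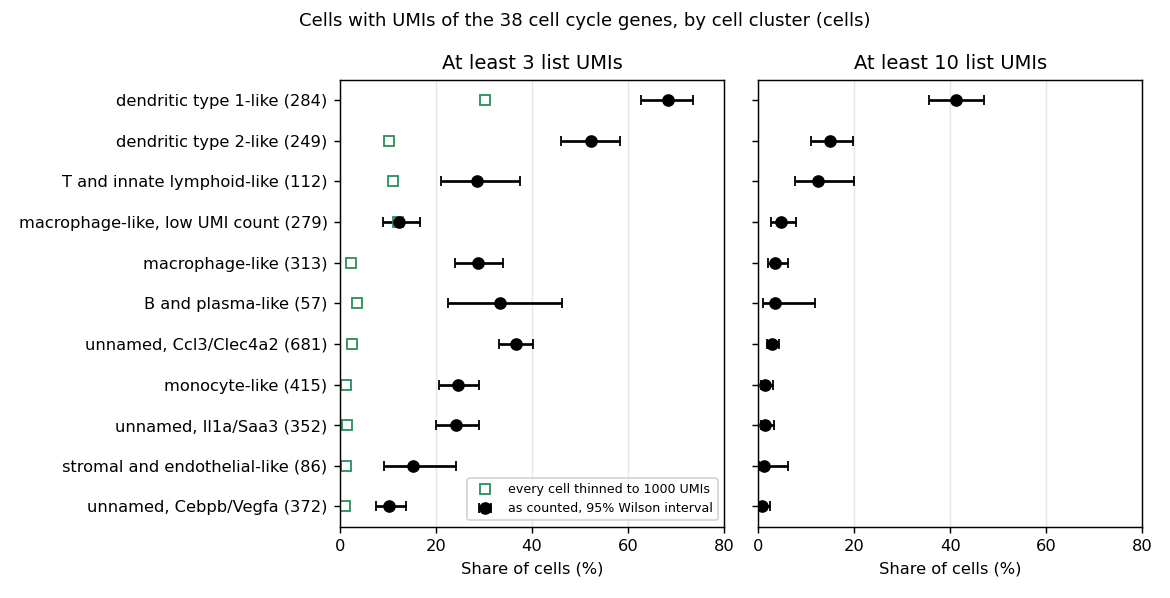
Share of cells (%) with at least 3 (left) or at least 10 (right) UMIs over the 38 genes in each cell cluster, with the number of cells in brackets, where black points are all cells with 95% Wilson intervals and green squares, drawn on the left only, the shares after thinning to 1000 UMIs. Type 1-like dendritic cells lie highest on both scales (68.3% and 41.2%), and after thinning the monocyte-like and stromal-like clusters lie near 1%.

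Of the 38 genes, 30 had their highest CPM in type 1-like dendritic cells, including every G2/M gene other than Cks2. In those cells Top2a was at 128 CPM and found in 24.6% of cells, against 53.98 CPM and 9.24% in type 2-like and 6.59 CPM and 2.56% in macrophage-like cells of full depth. Top2a was at 75.1 CPM in T and innate lymphoid-like and at 46.5 CPM in low UMI macrophage-like cells. Birc5 (survivin, a subunit of the Aurora B complex) was at 177 CPM in type 1-like, 152 CPM in low UMI macrophage-like, 65.4 CPM in type 2-like and 1.89 CPM in monocyte-like cells. Mki67 followed with 37.8 CPM in type 1-like, 30.6 CPM in T and innate lymphoid-like and 1.89 CPM in monocyte-like cells, and with no UMI in 86 stromal-like cells. The other 8 genes peaked elsewhere. Ccne2, Hells, Mcm3, Mcm4, Mcm6 and Pcna, all of S phase, were highest in T and innate lymphoid-like cells, where Mcm6 was at 142 CPM against 108 CPM in type 1-like cells. Cks2, which binds the cyclin-dependent kinase, was highest in monocyte-like cells at 143 CPM, beside 136 CPM in type 1-like cells. Mcm2 was at 69.5 CPM in T and innate lymphoid-like cells and at 77.9 CPM (3 UMIs) in an unnamed cluster of 13 cells. These are sums over cells of all mice and were not tested.

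The balance of S and G2/M transcripts also differed between clusters. Among cells with at least 10 list UMIs, S genes gave 36.0% of list UMIs in type 1-like, 37.4% in type 2-like and 50.9% in T and innate lymphoid-like cells. In the low UMI macrophage-like cluster this share was 19.4% over 13 cells, and its G2/M genes reached 1263 CPM beside 477 CPM for its S genes. Stmn1, which destabilizes microtubules, was at 372 CPM there and at 25.3 CPM in the macrophage-like cluster of full depth. Monocyte-like cells with at least 10 list UMIs numbered 6 of 415.

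Between the conditions, cKO mice had fewer cells rich in cell cycle transcripts. The share of cells with at least 10 list UMIs was 7.87%, 12.9%, 9.41% and 7.83% in control replicates 1, 2, 3 and 4 and 3.61%, 3.72%, 2.89% and 5.99% in cKO replicates 5, 6, 7 and 8. Every cKO mouse was below every control mouse, with means of 9.497% ± 2.37 (SD, n = 4 mice) and 4.06% ± 1.34 (SD, n = 4). The list level, all list UMIs on the CPM scale, was 1138, 1910, 857 and 1194 CPM in control and 693, 842, 513 and 671 CPM in cKO mice. Here too the groups did not overlap, although control replicate 3 (857 CPM) lay just above cKO replicate 6 (842 CPM). After TMM scaling these mice were at 859 and 870 CPM, so that the groups overlapped. The level of the S genes alone (385 to 699 and 203 to 394 CPM) and of the G2/M genes alone (472 to 1212 and 299 to 539 CPM) overlapped as well. The cycling share did overlap, with 35.2% ± 4.5 (SD, n = 4) in control and 28.6% ± 6.1 (SD, n = 4) in cKO mice, which is -6.65 percentage points apart. Cells with at least 10 list UMIs held a median of 34, 75, 27.5 and 32 list UMIs in control and of 24, 36, 20.5 and 21 in cKO mice, and these ranges overlapped.

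Dendritic-like cells moved with this difference. They made up 20.3%, 27.9%, 25.9% and 23.7% of the cells of control replicates 1, 2, 3 and 4 and 8.43%, 7.45%, 4.75% and 8.53% of those of cKO replicates 5, 6, 7 and 8. Both kinds were a smaller share in every cKO mouse, type 1-like cells with 13.7% ± 5.7 against 4.33% ± 1.88 and type 2-like cells with 10.8% ± 3.7 against 2.96% ± 0.44 (SD, n = 4 mice each). With dendritic-like cells left out, the share of cells with at least 10 list UMIs was 2.29% ± 1.77 in control against 2.39% ± 1.07 in cKO mice, and the cycling share was 25.7% ± 3.0 and 26.1% ± 4.6 (SD, n = 4 each). The list level of the remaining cells was 555 ± 155 CPM and 444 ± 71 CPM, with overlapping groups. When the clusters of each mouse were weighted to the same makeup, the share of cells with at least 10 list UMIs was 7.09% ± 1.32 in control and 6.21% ± 1.17 in cKO mice, again with overlap. What part the smaller share of dendritic-like cells has in the difference over all cells was not tested beyond these values.

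**Figure D2:**
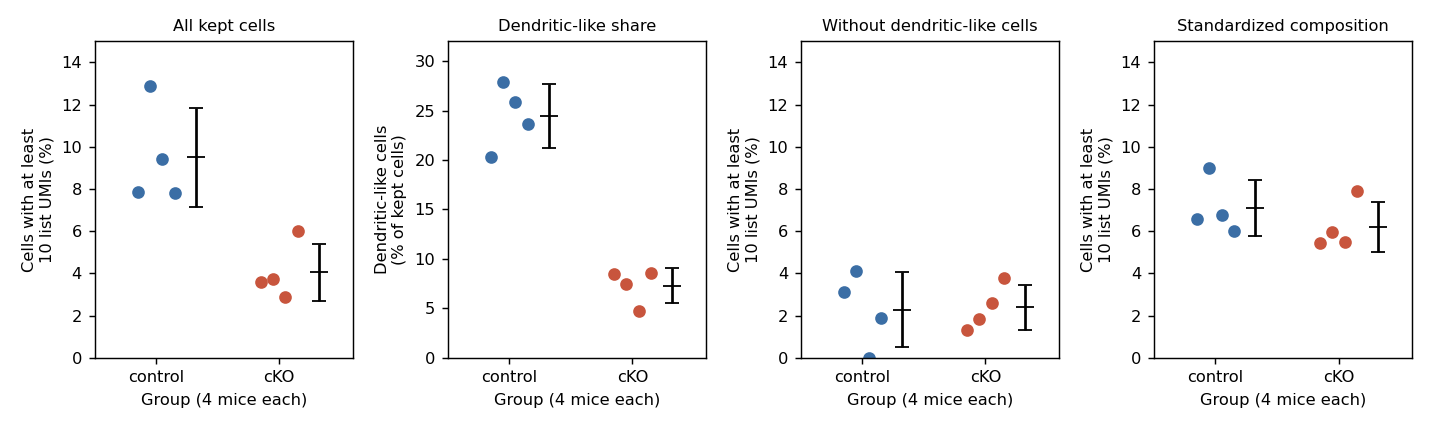
Each point is 1 mouse, and the bar beside each group is the mean with its SD (n = 4 mice). From left to right the panels give the share of cells (%) with at least 10 list UMIs, the share of dendritic-like cells (%), and the first share again without dendritic-like cells and at a standardized cluster makeup; control and cKO mice separate in the first 2 panels and overlap in the last 2.

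Within dendritic-like cells, the share of type 1-like cells with at least 10 list UMIs overlapped between the conditions, while only 1 type 2-like cell of cKO mice reached that limit. Of type 1-like cells, 25 of 76, 42 of 102, 7 of 14 and 22 of 41 had at least 10 list UMIs in control replicates 1, 2, 3 and 4, and 2 of 5, 7 of 16, 2 of 8 and 10 of 22 in cKO replicates 5, 6, 7 and 8. Per mouse these are 32.9% to 53.7% in control and 25% to 45.5% in cKO mice, and 41.2% of the cells of each group pooled (the difference was not tested), at a median of 11136 and 10323 UMIs per cell. Their list level of 1923 to 3636 CPM in control and 1351 to 4078 CPM in cKO mice overlapped. Of type 2-like cells, 14 of 71, 8 of 39, 1 of 8 and 13 of 89 had at least 10 list UMIs in control mice, and 0 of 2, 0 of 10, 0 of 15 and 1 of 15 in cKO mice. The list level of type 2-like cells was 1774, 2169, 409 and 1283 CPM in control and 362, 345, 306 and 376 CPM in cKO mice. All cKO mice were thus below all control mice, with control replicate 3, which had 8 such cells, close to them. Median depth was lower as well, at 6435.5 UMIs per type 2-like cell in cKO against 7832 in control mice, and after thinning to 1000 UMIs 25 of 206 control and 0 of 40 cKO cells had at least 3 list UMIs. The 42 type 2-like cKO cells gave no mouse the 20 cells needed for a test, the difference between the 2 kinds was not tested, and the part of depth in it was not tested.

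**Figure D3:**
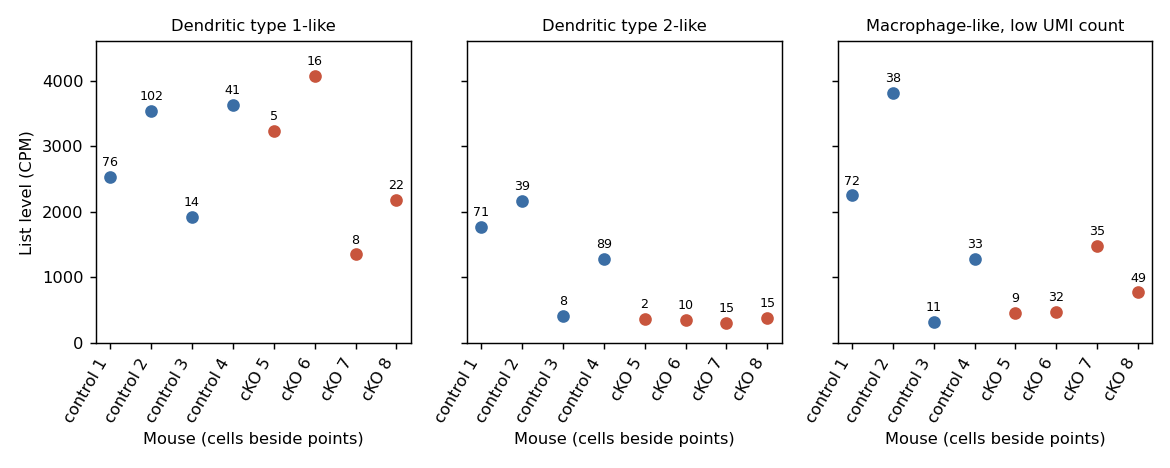
List level (UMIs of the 38 genes, CPM) of each mouse within type 1-like dendritic, type 2-like dendritic and low UMI macrophage-like cells, with the number of cells beside each point, control in blue and cKO in red. Type 2-like cells of cKO mice lie between 306 and 376 CPM, below the 409 to 2169 CPM of control mice, whereas type 1-like cells overlap.

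The low UMI macrophage-like cells had fewer such cells in cKO mice as a pooled count, while their list level overlapped. Cells with at least 10 list UMIs were 11 of 154 in control mice, of which 6 were from control replicate 2, and 2 of 125 in cKO mice. The list level was 2249, 3817, 320 and 1283 CPM in control and 457, 475, 1484 and 770 CPM in cKO mice. In the other direction, 6 of 455 control and 13 of 226 cKO cells of the unnamed cluster led by Ccl3 and Clec4a2 had at least 10 list UMIs, of which 8 were from cKO replicate 8. Median depth was 5296 UMIs in control and 6322.5 UMIs in cKO cells of this cluster, and at 1000 UMIs 12 of 454 control and 4 of 224 cKO cells had at least 3 list UMIs, which is the opposite order. T and innate lymphoid-like cells had 7 cells with at least 10 list UMIs in each condition, of 53 and of 59.

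The genes were then tested one by one on UMIs summed over all cells of each mouse. Of the 38 genes, 7 were lower in cKO mice (edgeR's quasi-likelihood test, Benjamini-Hochberg adjustment over 11387 genes, threshold of 0.05), where 1.48% of all genes tested were lower, and 11 with DESeq2, where 2.01% were. None was higher with edgeR, at an adjusted p (2.99% of all genes) or an unadjusted p under 0.05 (10.5% of all genes), or with DESeq2 (3.38% of all genes). All 38 passed the filter on low counts. Their median log2 fold change was -1.26, beside -0.03 for all genes, and 37 of 38 had a log2 fold change below 0. At an unadjusted p under 0.05, 30 genes were lower, against 10.1% of all genes. All cKO mice were below all control mice in 12 genes (4 of S phase and 8 of G2/M), where 8.34% of all genes had this order, and 0 genes had the opposite order, against 4.00% of all genes. After TMM scaling the count was again 12, beside 6.11% of all genes in this order and 5.85% in the opposite one. Plain CPM shifted the median of all genes by -0.11 on the log2 scale, and the log2 fold changes given are after TMM scaling. The calls rested on few mice. Without control replicate 2 or cKO replicate 7 no gene passed (edgeR), where 0.373% and 0.428% of all genes were lower. Leaving out control replicates 1, 3 and 4 in turn gave counts of 1, 8 and 10 (0.447%, 1.33% and 2.61% of all genes), and leaving out cKO replicates 5, 6 and 8 gave 2, 12 and 3 (1.16%, 1.03% and 0.813%). The log2 fold changes of the 7 genes were below 0 each time. With the dendritic-like, lymphoid-like and stromal-like cells left out, 27 genes passed the filter and 0 of them the threshold (edgeR), where 1.17% of all genes were lower and 2.16% higher, and at an unadjusted p under 0.05, 8 were lower and 1 higher, where 8.80% and 8.37% of all genes were. The median log2 fold change of the 27 genes was -0.52, beside -0.04 for all genes, and 23 of them were below 0. Of the 7 genes, Cdk1, Birc5, Aurkb, Mcm5 and Bub1b had -1.59, -1.38, -1.27, -0.76 and -0.37 there, each smaller in size than over all cells. Cenpf and Cenpe did not pass the filter.

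Of the genes past the threshold with edgeR, 6 were among the 24 G2/M genes and 1 among the 14 S genes, where 1.48% of all genes were lower. With DESeq2 these counts were 7 and 4 (2.01% of all genes). Without control replicate 1 (edgeR) they were 0 and 1 (0.447%). Aurkb, the Aurora B kinase of the chromosomal passenger complex (ENSMUSG00000020897, chr11:69045647-69051664), was at 21.3, 22.9, 8.49 and 18.5 CPM in control replicates 1, 2, 3 and 4 and at 2.01, 6.65, 2.01 and 7.87 CPM in cKO replicates 5, 6, 7 and 8. The groups did not overlap, and Aurkb fell by 1.81 on the log2 scale (standard error 0.38, adjusted p = 0.0223, edgeR). Its partner Birc5 (chr11:117849251-117855743) was at 57.9, 117, 44.1 and 42.1 CPM in control and 6.03, 34.5, 14.1 and 12.2 CPM in cKO mice. Birc5 fell by 1.80 (standard error 0.42, adjusted p = 0.0347, edgeR), with cKO replicate 6 nearest to the control mice. Cdk1 (chr10:69335146-69352938) was at 25.8, 52.9, 25.5 and 25.2 CPM in control and 2.01, 17.5, 4.83 and 10.1 CPM in cKO mice. Control replicate 2 was far above the other control mice, the groups did not overlap, and Cdk1 fell by 1.70 (standard error 0.41, adjusted p = 0.0378, edgeR).

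The other G2/M genes past the threshold were Bub1b, Cenpf and Cenpe. Bub1b, the BubR1 checkpoint protein (chr2:118598211-118641591), was at 7.18, 12.5, 6.79 and 8.75 CPM in control and 2.01, 3.63, 2.01 and 4.37 CPM in cKO mice. It fell by 1.41 (standard error 0.35, adjusted p = 0.0444, edgeR). Cenpf (chr1:189640606-189688086) was at 12.5, 23.9, 17.0 and 10.1 CPM in control and 4.02, 8.46, 1.21 and 3.4996 CPM in cKO mice, which gave a log2 fold change of -1.84 ± 0.47 (standard error; edgeR adjusted p = 0.0473). Cenpe, a kinetochore motor (chr3:135212537-135273611), was at 14.4, 18.7, 6.79 and 7.07 CPM in control and 2.01, 6.05, 0.402 and 2.62 CPM in cKO mice, which gave a log2 fold change of -2.11 ± 0.55 (standard error; edgeR adjusted p = 0.0488). In all 3 genes every cKO mouse was below every control mouse. In each the highest cKO mouse lay within 3 CPM of the lowest control mouse. The only S phase gene past the threshold was Mcm5 (chr8:75109569-75128439), with 30.6, 53.8, 37.3 and 44.4 CPM in control and 10.0, 15.7, 9.25 and 24.5 CPM in cKO mice, which gave a log2 fold change of -1.32 ± 0.29 (standard error; edgeR adjusted p = 0.0265).

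Other well known members did not pass. Mki67 (chr7:135689784-135716361) was at 17.8, 28.4, 11.9 and 18.8 CPM in control and 14.1, 5.44, 17.3 and 7.87 CPM in cKO mice, with overlap and an adjusted p of 0.236 (edgeR, log2 fold change -0.77, standard error 0.35). Top2a (chr11:98992943-99024189) was at 43.3, 73.4, 11.9 and 38.03 CPM in control and 22.1, 24.2, 10.5 and 11.4 CPM in cKO mice, where control replicate 3 lay among the cKO mice (log2 fold change -1.39, standard error 0.40, adjusted p = 0.0736, edgeR). Mcm6 (chr1:128331590-128359664) was at 38.5, 56.0, 40.7 and 45.8 CPM in control and 28.1, 29.0, 13.3 and 26.7 CPM in cKO mice, so that although the groups did not overlap its adjusted p was 0.0620 (edgeR, log2 fold change -0.86, standard error 0.24). Stmn1 (chr4:134468320-134473843) missed the threshold by little, at 133, 252, 61.1 and 137 CPM in control and 78.4, 64.1, 42.2 and 57.7 CPM in cKO mice (log2 fold change -1.24, standard error 0.32, adjusted p = 0.0504, edgeR). Pcna (chr2:132249162-132253314), the gene found in most cell types, was at 106, 144, 122 and 153 CPM in control and 143, 109, 98.1 and 122 CPM in cKO mice, which gave a log2 fold change of -0.08 ± 0.16 (standard error; edgeR adjusted p = 0.841). The only gene with a higher mean in cKO mice was Cks2, at 97.5 ± 21.5 CPM in control and 119 ± 15 CPM in cKO mice (SD, n = 4 each, adjusted p = 0.245, edgeR). Pcna and Cks2, with the smallest shares of their UMIs in cells with at least 10 list UMIs (40.1% and 39.2%), had the highest log2 fold changes. Mcm4 and Cenpa, next by that share (50.5% and 53.3%), had -0.40 and -0.66. A link between this share and the fold change was not tested.

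**Figure D4:**
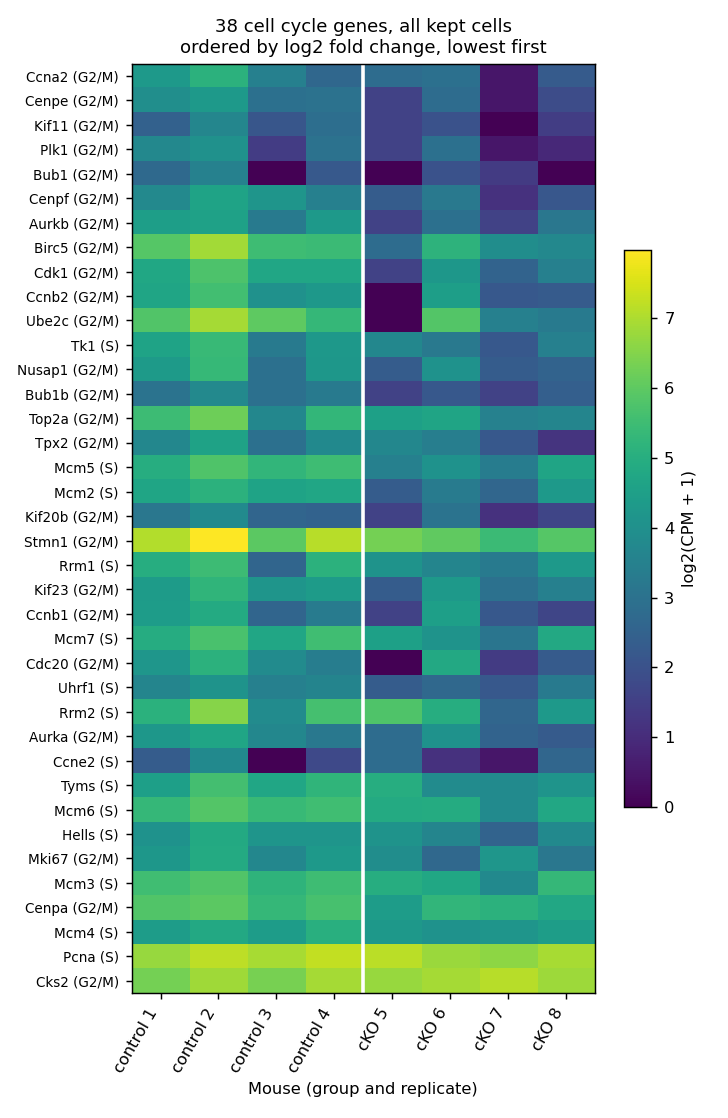
Level of each of the 38 genes, log2(CPM + 1), in every mouse (control replicates 1 to 4 left of the white line, cKO replicates 5 to 8 right of it), ordered from the lowest log2 fold change at the top to Cks2 at the bottom. The cKO columns are darker for most rows, cKO replicate 6 is brighter than the other cKO mice in several G2/M genes, and Pcna and Cks2 look alike in all 8 mice.

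By role, the 6 helicase genes had log2 fold changes from -1.32 (Mcm5) to -0.40 (Mcm4), and the 4 nucleotide genes from -1.56 (Tk1, adjusted p = 0.0527, edgeR) to -0.92 (Tyms). The S phase genes had a median of -1.003 and the G2/M genes of -1.47. The largest value belonged to the cyclin Ccna2, with -2.21 (standard error 0.65, adjusted p = 0.0774, edgeR), at 17.1 ± 12.4 CPM in control and 4.26 ± 2.82 CPM in cKO mice (SD, n = 4 each). Cdc20, an activator of the anaphase-promoting complex, and the cyclin Ccnb1 overlapped between the groups. Here cKO replicate 6 held 27.2 and 21.8 CPM, beside 0 to 3.94 CPM of Cdc20 and 2.01 to 3.62 CPM of Ccnb1 in the other cKO mice.

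Within single clusters no gene passed. The fit on sums per mouse and cluster could compare 6 clusters, and in each of them 0 of the 38 genes were past the threshold in either direction with edgeR or DESeq2. Background calls were few in this fit, with 0.0271% of 11072 genes lower and 0.190% higher in dendritic-like cells, 0.0181% and 0.0723% in low UMI macrophage-like cells, 0.0361% and 0.135% in lymphoid-like cells and 0.0542% and 0.226% in monocyte-like cells. For the unnamed clusters led by Ccl3 and by Cebpb these were 0.154% and 0.623%, and 0.00903% and 0.0903%. In dendritic-like cells (4 control and 3 cKO sums) the median log2 fold change of the 38 genes was -0.55, beside -0.17 for all genes, and 4 genes were lower and 0 higher at an unadjusted p under 0.05, where 5.18% of all genes were lower and 1.91% higher. These values rested on few mice, and for the fits of single clusters without 1 mouse the share of all genes is not given. Without cKO replicate 6 the median was -1.24 and 19 genes were lower, without control replicate 2 it was -0.28 with 1 lower, and without cKO replicate 7 it was -0.15 with 1 lower and 1 higher, while without cKO replicate 8, 7 were lower. With DESeq2 the median was -0.33 and no gene had an unadjusted p under 0.05. The lowest value there was that of Mki67, -1.58 (standard error 0.60, adjusted p = 0.522, edgeR), and Aurkb, Birc5, Cdk1 and Mcm5 had -0.83, -0.61, -0.41 and -0.55, each smaller in size than over all cells. In low UMI macrophage-like cells 8 genes were lower and 0 higher at an unadjusted p under 0.05 (3.40% of all genes were lower and 2.10% higher), with Cdk1 at -3.33 (standard error 1.04, adjusted p = 0.387, edgeR). The count was 4 without control replicate 2 or cKO replicate 6, 3 without cKO replicate 8, 12 without cKO replicate 7 and 13 without control replicate 4. Without Scrublet calls it was 4, at a median log2 fold change of -1.12 instead of -1.78. With DESeq2 it was 5, and the share of all genes is not given for these 2 settings. Lymphoid-like cells likewise had 8 lower and 0 higher (3.11% and 3.43% of all genes), but 0 lower without control replicate 2 and 4 without cKO replicate 6 or 8. Monocyte-like cells had 1 lower and 0 higher (1.76% and 4.65%), the Ccl3 cluster 0 lower and 1 higher (4.11% and 3.92%), and the Cebpb cluster 0 in either direction (3.17% and 2.58%).

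**Figure D5:**
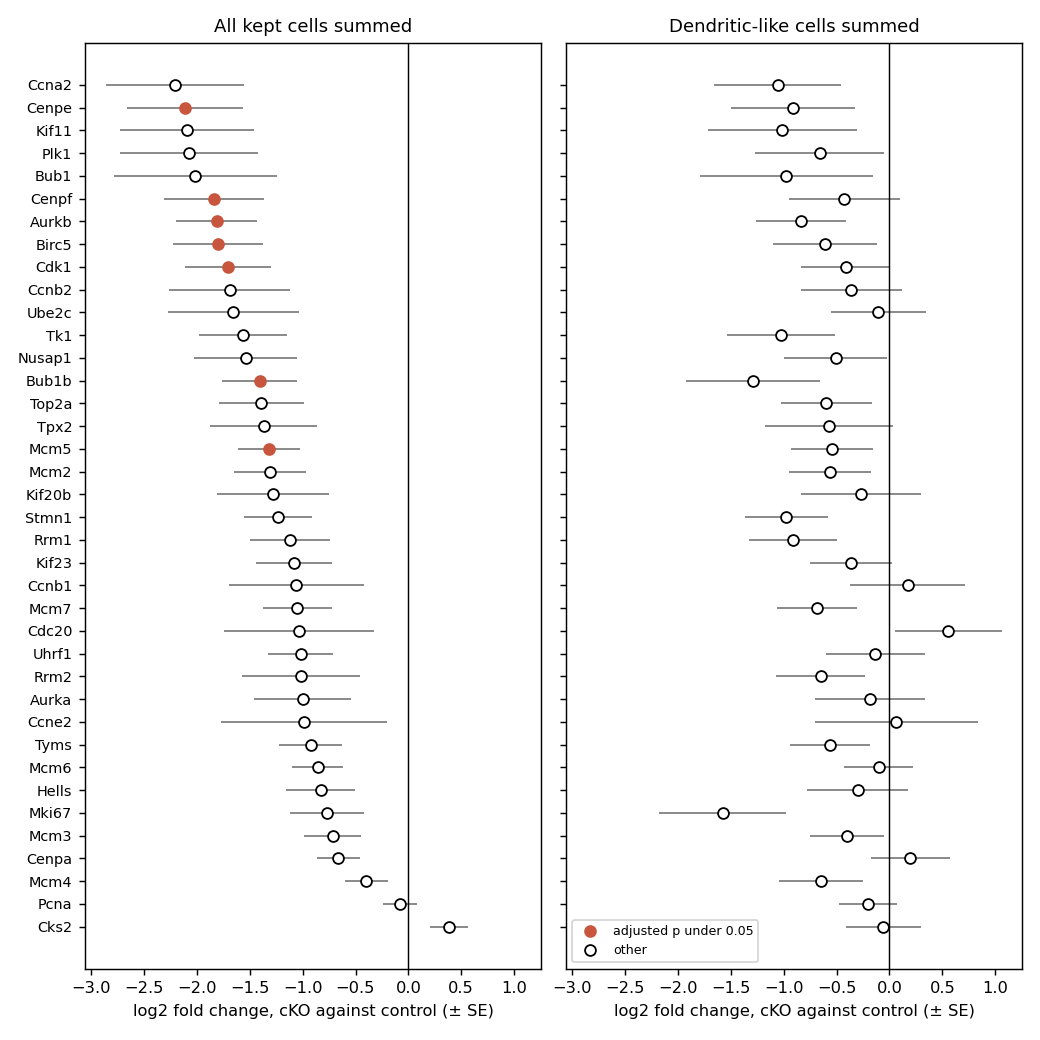
log2 fold change of each gene, cKO against control, with its standard error, for all kept cells summed (left) and for dendritic-like cells summed (right), where filled red points passed the threshold (adjusted p under 0.05, edgeR). Over all cells 37 of 38 genes lie left of 0 and 7 are filled, while within dendritic-like cells most points lie nearer to 0 and none is filled.

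Further genes of the cycle came from 3 lists that hold none of the 38. Of 35 other S phase genes 1 was lower and 0 higher, of 44 other G2/M genes 5 were lower and 0 higher, and of 31 regulators of G1 (28 tested) 0 were lower and 2 higher (edgeR, against 1.48% and 2.99% of all genes). At an unadjusted p under 0.05 the S phase list had 15 lower and 0 higher, the G2/M list 29 lower and 1 higher and the G1 list 3 lower and 7 higher, where 10.1% of all genes were lower and 10.5% higher. Median log2 fold changes were -0.72, -1.27 and 0.19. Fam64a, a mitotic regulator also known as Pimreg, was at 5.85, 12.2, 13.6 and 5.72 CPM in control and 0, 1.21, 0.402 and 0 CPM in cKO mice (log2 fold change -4.03, standard error 0.68, adjusted p = 0.00824, edgeR). Cdca3, which promotes entry into mitosis, was at 23.9 ± 10.2 CPM in control and 6.47 ± 2.70 CPM in cKO mice (SD, n = 4 each, adjusted p = 0.0121, edgeR), with the highest cKO mouse (10.3 CPM) below the lowest control mouse (11.9 CPM). Spc25 and Nuf2, subunits of the kinetochore complex NDC80, had log2 fold changes of -1.64 and -2.38 (adjusted p = 0.0219 and 0.0355, edgeR), and the fifth gene, Spc24 of the same complex, named in addition after its values were seen, had -1.60 (adjusted p = 0.0444). The groups overlapped in Nuf2 and in Spc24, the latter at 11.9 CPM in control replicate 3 and 20.1 CPM in cKO replicate 5. Tipin, which guards replication forks, was at 42.2 ± 8.3 CPM in control and 23.2 ± 6.8 CPM in cKO mice (SD, n = 4 each, adjusted p = 0.0473, edgeR).

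The 2 genes that rose were Cdkn1a and Mdm2. Cdkn1a, the inhibitor p21 of cyclin-dependent kinases, was at 319, 241, 323 and 603 CPM in control replicates 1, 2, 3 and 4 and 722, 716, 891 and 686 CPM in cKO replicates 5, 6, 7 and 8. Mdm2, the ligase that degrades p53, was at 44.1, 46.8, 47.5 and 71.7 CPM in control and 135, 87.1, 108 and 83.99 CPM in cKO mice. In both, every cKO mouse was above every control mouse, with log2 fold changes of 1.12 (standard error 0.25, adjusted p = 0.0269) and 1.04 (standard error 0.21, adjusted p = 0.0178, edgeR), and control replicate 4 came nearest to the cKO mice. These lists also rested on few mice. Without control replicate 1, control replicate 2 or cKO replicate 7, no gene of the other S phase and G1 lists passed (edgeR) and 2 of the G2/M list did. Without cKO replicate 8 the counts were 0, 1 and 2, respectively. Without control replicate 3, control replicate 4 and cKO replicate 6 the G2/M list had 8, 11 and 9. Fam64a passed whichever mouse was left out, whereas Tipin and Cdkn1a each passed only without control replicate 4 or cKO replicate 5.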

How the data were processed

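Single-cell 3′ libraries of 8 mice were aligned by the authors to mm10, to which the EYFP sequence had been added, with Cell Ranger and STAR 2.5.3a (R 3.5.0 is also named in the submitters' processing notes), and the deposited values are whole-number UMI counts per gene and cell before any filter. Each cell was given to its mouse by the well in its name, and no column was left out. Cells were kept from a log10 of 2.8 UMIs and of 2.6 genes, with at most 5% mitochondrial UMIs and no hemoglobin UMI. The members and lists were chosen with earlier results of these data known. Cells were normalized with scran 1.30.0 and clustered by Ward's method into 9 clusters without 215 cell cycle genes, and a cluster was named where at least 2 markers of 1 class were among its leading 10 genes, a limit set after the clusters were seen. The dendritic-like cluster was cut into 2 and the lymphoid-like one into 3. Sums of counts, over each mouse or over its cells in 1 cluster (20 cells or more), were tested with edgeR 4.0.16 (TMM, CPM above 1 in at least 3 mice and a UMI in at least 20 cells) at a false discovery rate of 0.05, with DESeq2 1.42.0 as an alternative. Shares and list levels were described per mouse without a test. Doublets were called with Scrublet per mouse (scanpy 1.11.5) and kept. Genes named are the members past the threshold, Mki67, Top2a, Birc5, Pcna, Mcm6 and Stmn1, and up to 4 genes past the threshold with the lowest adjusted p of each other list, with others where the text gives a range or a peak. Gene positions (GRCm38, equal to mm10) came from GENCODE vM21. The fits were tested on simulated data. The alternatives tried were other limits on list UMIs, thinning, cell filters, doublet calls, 12 clusters, other fits and leaving out each mouse.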

Additional observations from a re-analysis of the deposited data

Results flagged for a closer look

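A mouse was flagged where its distance to the nearest mouse of its group took up nearly the whole range of that group, which chance alone does in about 1 in 20 groups, and 11 of 110 groups of 4 mice were flagged. Control replicate 2 was high in Cdk1 (52.9 CPM, others 25.2 to 25.8), Hells (27.5 CPM, others 15.95 to 17.0) and Kif23 (36.7 CPM, others 17.0 to 19.9). For cKO replicate 6 the high genes were Ccnb1 (21.8 CPM, others 2.01 to 3.62), Cdc20 (27.2 CPM, others 0 to 3.94), Nusap1 (15.7 CPM, others 4.02 to 4.81) and Kif20b (7.26 CPM, others 1.21 to 2.19), all of mitosis. The level of the G2/M genes together was also highest in cKO replicate 6, at 539 CPM beside 299 to 310 CPM in the other cKO mice, as was the list level at a standardized makeup, at 888 CPM beside 679 to 699 CPM. In cKO replicate 7, Mcm6 was low (13.3 CPM, others 26.7 to 29.0), and 8.70% of its dendritic-like cells had at least 10 list UMIs, beside 26.9% to 29.7% in the other cKO mice.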

How the results depend on the processing

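The count of 7 members lower in cKO mice became 11 with DESeq2 (2.01% of all genes), 20 without the filter on low counts (1.88%), 0 without dendritic-like, lymphoid-like and stromal-like cells (1.17%) and 2 at 1000 UMIs per cell (1.33%), and ranged from 0 to 12 when 1 mouse was left out. The 11 genes with DESeq2 held 6 of the 7 and not Bub1b. At 1000 UMIs per cell, where 27 members passed the filter, the 2 genes were Stmn1 and Ube2c, and 0 of the 7 passed the threshold. Without the filter on low counts, 1 member passed in lymphoid-like, 2 in low UMI macrophage-like and 1 in dendritic-like cells. The share of all genes in single clusters at this setting is not given, so these counts have no reference. Of the other S phase genes, 0 were lower without Scrublet calls (0.907% of all genes), without those 3 cell groups (1.17%) or after thinning (1.33%). Without lymphoid-like and stromal-like cells 2 were lower (1.99%), and 0 to 2 without 1 mouse. The other G2/M genes lower in cKO mice numbered 10 with DESeq2 (2.01% of all genes), 14 without the filter (1.88%) and 9 without lymphoid-like and stromal-like cells (1.99%). They numbered 0 without all 3 groups (1.17%) and 1 after thinning (1.33%), and 2 to 11 without 1 mouse. For G1 regulators, DESeq2 called 1 lower (2.01% of all genes), and 1 was higher without the 3 groups (2.16%) or after thinning (2.21%). Without 1 mouse 0 to 2 were higher. The cycling share difference of -6.65 percentage points was -1.81 at a standardized makeup and turned to 0.432 without dendritic-like cells. From 10 UMIs it was -0.886 at a standardized makeup and 0.101 without dendritic-like cells instead of -5.44, and the list level difference was -181 and -112 CPM instead of -595 CPM. These exclusions of dendritic-like cells, the list level after TMM scaling and all settings from 10 UMIs were chosen after seeing the data. By cluster, over mice with 20 cells, thinning turned the cycling share difference from 5.56 to -3.66 percentage points in lymphoid-like cells (-2.90 to 11.8 without 1 mouse) and from 8.63 to -0.999 in the Ccl3 cluster, and moved it from 8.12 to 1.99 in monocyte-like and from -15.7 to -2.51 in dendritic-like cells. In low UMI macrophage-like cells it was -6.44, and -9.69 from 5 UMIs. Apart from the effect of fewer cells or genes, the cause was not tested. With 12 clusters the dendritic-like match had too few cKO sums and could not be fitted. No paired analysis was possible because the groups share no replicate number.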
